A study of Mus musculus with 8 samples.

Results

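The 38 genes described here encode the machinery of DNA replication and the regulators of entry into S phase. They were chosen by name, as the rows of the deposited table of expression values whose symbol is on a list covering origin licensing, the replicative polymerases, nucleotide synthesis and the G1/S cyclins. All 38 were found among the 26202 genes of the table, and all 38 passed the filter on low values, so none is left out below. Expression is given in RPKM, reads scaled to the length of the gene and to the depth of the library, as the authors deposited it.

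Polyadenylated RNA was sequenced from primary cells cultured from skin epidermis of newborn mice (postnatal day 0 to 1) that were wild type or knockout for Dlx3, a homeobox transcription factor gene of the epidermis and its appendages. The cells were transduced 24 hours after plating with an adenovirus that encodes green fluorescent protein (AdGFP, the control) or Dlx3 (AdDlx3). The 4 groups, wild type with AdGFP, wild type with AdDlx3, knockout with AdGFP and knockout with AdDlx3, held 2 libraries each. The deposited sample sheet puts replicate 1 of each group in batch A and replicate 2 in batch B, without saying what a batch is, and every culture, the controls included, carried an adenovirus. The labels do not say which part of Dlx3 is deleted, whether it is deleted in all tissues, or whether replicates are separate pups, so p-values measure the spread between these libraries, which may be technical.

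Dlx3 (chr11:95120119-95125296, plus strand, in GRCm38 coordinates as for every gene below) stood at 1.71 and 0.656 RPKM under AdGFP and 237 and 402 RPKM under AdDlx3 in batch A, and 1.77 and 0.558 RPKM under AdGFP and 782 and 539 RPKM under AdDlx3 in batch B, wild type first and knockout second, an order kept for every gene below. It was lower in both knockout than in both wild-type AdGFP libraries, and far higher in each AdDlx3 library, with both batch B AdDlx3 libraries above both of batch A. The libraries held 73688944 to 124857742 alignments, per the deposited sample sheet. Krt5 and Krt14, the keratins of basal epidermal cells, reached at least 221 and 244 RPKM in every library, so the epidermal label of the cultures has its markers.

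A cell licenses its replication origins in G1, when the origin recognition complex with Cdc6 and Cdt1 loads the MCM2-7 helicase onto DNA, and fires them in S phase, when Cdc45, the GINS complex and Mcm10 turn the helicase on. Cyclin E with its kinase, and E2F transcription factors released from the retinoblastoma protein, drive the step from G1 into S phase, and many replication genes are E2F targets. In the epidermis, division is largely a property of basal keratinocytes, which leave the cell cycle as they differentiate.

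RefSeq promoters (250 bases before the start of a gene to 50 after it, GRCm38.p6) were on hand for 30 of the 38 genes. Of these 4 are shown, 2 with and 2 without an exact match to an E2F-type motif searched for, so that its letters can be seen. Mcm6 and Mcm7 encode helicase subunits whose promoters hold an E2F-type motif, searched on both strands as TTTCCCGC or TTTGGCGC and written in capitals. The windows of Ccne1 (cyclin E1) and Mcm10 hold neither motif in full. The Mcm10 window ends in TTTGGCG, so whether a TTTGGCGC crosses its edge cannot be seen. Ccne1, Mcm10 and Pola1, whose window holds TTTGGCGC, rose with AdDlx3 in both batches. Members whose responses differed between batches include Cdc6, Cdt1, Mcm3, Mcm5, Mcm7, Pold1 and Rfc3, which hold a motif. They also include Cdc45, Chaf1a, Chaf1b, E2f1, Fen1, Lig1, Mcm2, Pola2, Rfc5, Rrm1, Rrm2 and Tk1, which hold neither. For Gins1, Gins2, Prim2 and Rfc2, whose responses differed too, no window was on hand. Whether a motif goes with the response was not tested. Each sequence reads 5′ to 3′ along the strand of its gene, and the windows are chr1:128359656-128359955, minus strand (Mcm6), chr5:138171834-138172133, minus strand (Mcm7), chr7:38107441-38107740, minus strand (Ccne1) and chr2:5012742-5013041, minus strand (Mcm10).
Mcm6: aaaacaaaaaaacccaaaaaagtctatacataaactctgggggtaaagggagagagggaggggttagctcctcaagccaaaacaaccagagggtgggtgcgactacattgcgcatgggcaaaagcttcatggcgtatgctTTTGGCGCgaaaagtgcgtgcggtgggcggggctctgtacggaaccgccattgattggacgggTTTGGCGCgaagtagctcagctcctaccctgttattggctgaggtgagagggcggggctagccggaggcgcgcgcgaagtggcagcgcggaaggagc
Mcm7: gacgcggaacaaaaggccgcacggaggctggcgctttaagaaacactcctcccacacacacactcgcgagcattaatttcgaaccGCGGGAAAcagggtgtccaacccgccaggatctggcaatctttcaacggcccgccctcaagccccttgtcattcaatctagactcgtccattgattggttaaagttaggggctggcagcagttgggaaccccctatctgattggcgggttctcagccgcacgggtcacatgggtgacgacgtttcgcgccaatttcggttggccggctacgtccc
Ccne1: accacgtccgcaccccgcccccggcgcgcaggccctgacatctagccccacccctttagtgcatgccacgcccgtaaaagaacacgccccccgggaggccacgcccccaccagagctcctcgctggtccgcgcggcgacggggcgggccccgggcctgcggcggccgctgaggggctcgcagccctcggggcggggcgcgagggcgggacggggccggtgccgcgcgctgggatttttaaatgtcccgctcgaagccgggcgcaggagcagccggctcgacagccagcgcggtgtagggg
Mcm10: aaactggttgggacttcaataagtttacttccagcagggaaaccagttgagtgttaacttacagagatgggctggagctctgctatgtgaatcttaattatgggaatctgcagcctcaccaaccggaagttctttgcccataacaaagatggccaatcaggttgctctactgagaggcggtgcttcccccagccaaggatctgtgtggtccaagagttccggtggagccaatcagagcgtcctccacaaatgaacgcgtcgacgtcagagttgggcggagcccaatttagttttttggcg
The Mcm6 window holds TTTGGCGC at 110 and at 47 bases before the RefSeq start used. The Mcm7 window holds TTTCCCGC on the opposite strand, its match beginning 165 bases before the RefSeq start used. That start differs from the end of the gene span given below. The whole Mcm7 window lies inside that span, and so do the windows of Cdc6 and E2f1 for their genes. One or the other motif was found in 10 of the 30 promoters (33.3%), those of Cdc6, Cdt1, Gins3, Mcm3, Mcm5, Mcm6, Mcm7, Pola1, Pold1 and Rfc3, against 311 of the 9633 promoters of genes tested (3.23%). The CCAAT box was found in 17 (56.7%, against 39.5% of the promoters of genes tested), the CHR motif TTTGAA of late cell cycle genes in 4 (13.3% against 11.8%) and TAATTG, a homeodomain-type motif, in 1 (3.33% against 4.53%). These matches describe the letters of the windows and were not tested for binding.

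The members were expressed in all 8 libraries, from 2.14 RPKM for Gins3 to 161 RPKM for Pcna. Their summed level was 707 and 648 RPKM in the batch A AdGFP libraries, wild type and knockout, and 986 and 1050 RPKM in those with AdDlx3. In batch B it was 953 and 1104 RPKM under AdGFP and 836 and 936 RPKM under AdDlx3. The sum was thus lowest in the batch A controls, and AdDlx3 libraries lay above their controls in batch A and below them in batch B. In these bulk libraries, fewer cells in S phase and less of these RNAs per cell cannot be told apart.

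**Figure D1:**
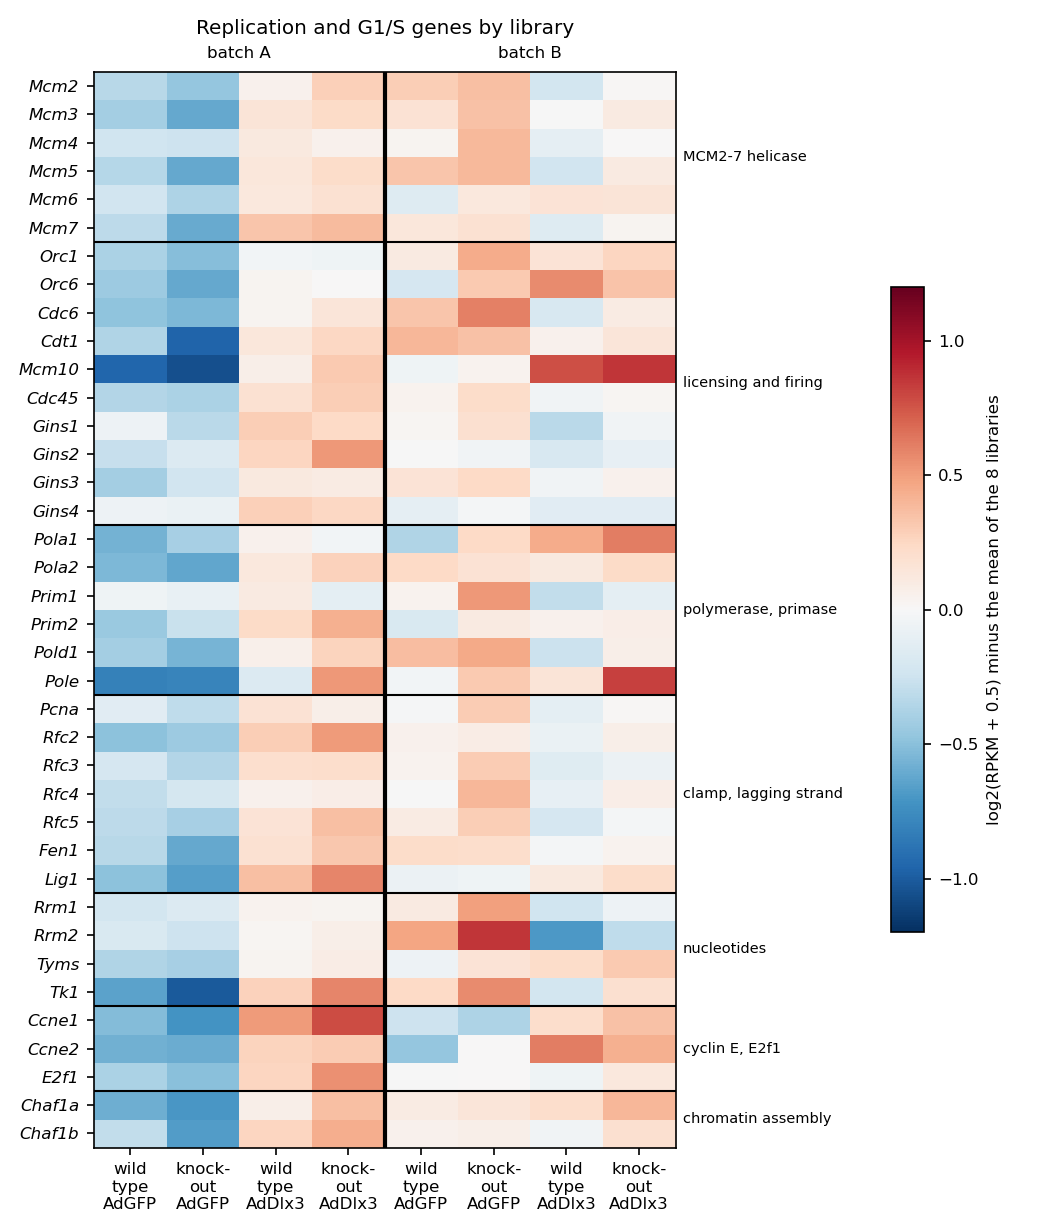
Level of each of the 38 members (rows, grouped by role) in each of the 8 libraries (columns), as log2(RPKM + 0.5) minus the mean of the gene over the 8 libraries. The batch A AdGFP columns are the lowest for most rows, while Mcm10, Ccne1 and Ccne2 are higher under AdDlx3 in both batches.

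The response to AdDlx3 differed between the batches for most of the list. In batch A 32 of the 38 genes rose and none fell, with a median change of 0.61 on the log2(RPKM + 0.5) scale, the scale of every change below. In batch B 4 rose, Ccne1, Ccne2, Mcm10 and Pola1, and 7 fell, Mcm2, Mcm5, Cdc6, Pold1, Prim1, Rrm1 and Rrm2, with a median of -0.17. Genes were called at a Benjamini-Hochberg adjusted p under 0.05 from limma, adjusted over all 12090 genes tested. Of all those genes 36.6% rose and 8.55% fell in batch A (45.2% either way), with a median of 0.24, and 37.1% rose and 16.1% fell in batch B (53.2% either way), with a median of 0.20. The share of members that rose was therefore above that of all genes in batch A and below it in batch B. Both AdDlx3 libraries lay above both AdGFP libraries for 37 of the 38 members in batch A, against 59.1% of all genes, and for 9 in batch B, against 52.8%. In batch B both lay below both AdGFP libraries for 20 members, against 24.9% of all genes. Counted by genotype, with AdDlx3 38 members were higher in wild-type and 37 in knockout cells of batch A, all but Prim1, and 12 and 13 were higher in batch B. Most of all genes were higher with AdDlx3 in each of these pairs. Their median change was 0.23 in wild-type and 0.25 in knockout cells of batch A, and 0.21 and 0.18 in batch B.

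The term for the difference itself, the response in batch B minus that in batch A, was below 0 and past the threshold for 23 members and above 0 for none. Of all genes 8.56% passed downward and 5.43% upward (14% either way), and the median was -0.74 for the members and -0.07 for all genes. This fit takes the 2 genotypes as the 2 libraries of a virus in a batch, so it compares these 2 sets of cultures. The count of 23 fell to 6 without the batch B wild-type AdDlx3 library, to 8 without the batch A knockout AdGFP library, to 15 without the batch A knockout AdDlx3 library, and to 1 when all 23265 genes with any value above 0 were tested. Under that last setting Rfc2 alone of the 12 genes named below for their difference passed, and the other 11 had adjusted p of 0.0608 to 0.118. Calls over all genes fell too in each of the fits named for the count of 23. Under that last setting 241 of 23265 genes passed either way, against 1692 of 12090 with the filter. The batch A count fell to 18 without the knockout AdGFP library of that batch, and the batch B count of 4 up and 7 down became 2 up and 1 down without its wild-type AdDlx3 library. Without the knockout AdGFP library of batch B it was 5 up and 3 down, so which direction held more calls in batch B rested on single libraries. The median change of all genes with AdDlx3 was 0.22, a shift that scaling the libraries by the median of ratios took to 0.03. With that scaling 21 members rose in batch A (17.7% of all genes), and in batch B 17 fell (22.6% of all genes) while 3 rose. In batch B 5895 of 12090 genes passed either way with it.

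**Figure D2:**
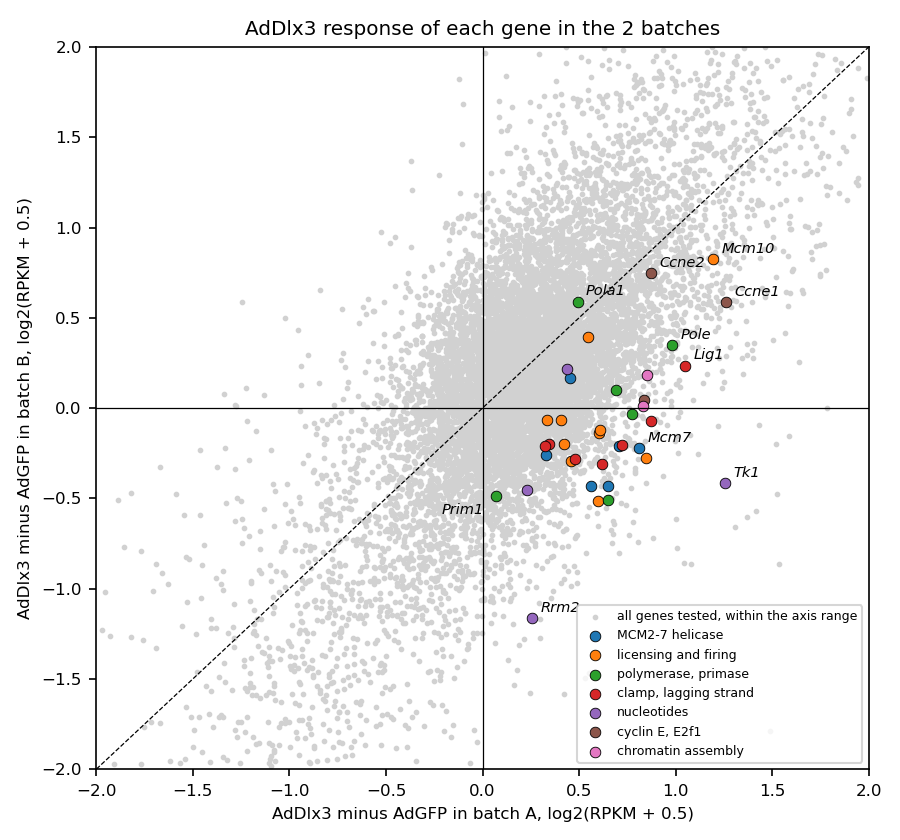
AdDlx3 response of every gene tested with both values within the axis range, in batch A (x axis) and batch B (y axis), each as AdDlx3 minus AdGFP in log2(RPKM + 0.5); members are coloured by role and the dashed line marks equal responses. All 38 members lie right of 0 in batch A, 25 of them lie below 0 in batch B, and only Pola1 lies above the dashed line. Both axes are plotted from separate libraries.

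The MCM2-7 helicase unwinds DNA ahead of the fork. Of its 6 subunit genes 5 rose with AdDlx3 in batch A, Mcm2, Mcm3, Mcm5, Mcm6 and Mcm7, and 2 fell in batch B, Mcm2 and Mcm5. The Mcm5 fall was lost without the batch B wild-type AdDlx3 library. Mcm2, a subunit of this ring (chr6:88883474-88898780, minus strand), was measured at 32.3 and 29.5 RPKM under AdGFP and 42.3 and 49.9 RPKM under AdDlx3 in batch A. Mcm2 in batch B was at 50.3 and 52.7 RPKM under AdGFP and 34.9 and 41.3 RPKM under AdDlx3. The batch A AdGFP libraries were the lowest and the batch B AdGFP libraries the highest of the 8. Its change was 0.56 ± 0.12 (SE) in batch A (limma adjusted p = 0.00533) and -0.43 ± 0.12 in batch B (limma adjusted p = 0.0148), and the difference of -1.0 ± 0.18 passed (limma adjusted p = 0.00742). The batch A rise of Mcm2 was past the threshold neither with median-of-ratios scaling (limma adjusted p = 0.0671) nor without the knockout AdDlx3 (0.0545) or knockout AdGFP library of batch A (0.0895), and the batch B fall was lost without its wild-type AdDlx3 (0.176) or AdGFP library (0.0628). Mcm7 (chr5:138164583-138172422, minus strand) was measured at 29.6 and 24.2 RPKM under AdGFP and 46.6 and 48.2 RPKM under AdDlx3 in batch A. Mcm7 in batch B was at 40.7 and 42.0 RPKM under AdGFP and 33.2 and 37.8 RPKM under AdDlx3. Within batch A its libraries did not overlap between viruses, and in batch B both AdDlx3 libraries were below both controls. It rose by 0.81 ± 0.13 in batch A (limma adjusted p = 0.0011), had a log2 difference of -0.22 ± 0.13 in batch B (limma adjusted p = 0.182), and differed by -1.03 ± 0.19 (limma adjusted p = 0.00804, and 0.0508 without the batch B wild-type AdDlx3 library). Exons of Mcm7 overlap those of Ap4m1 and Cops6 on the other strand, of which Cops6 averaged 91.0 RPKM against 37.8 RPKM for Mcm7, and whether reads were counted by strand is not stated in what was used here. Mcm6 (chr1:128331590-128359664, minus strand), whose promoter with 2 motif copies is shown above, was measured at 27.03 and 24.5 RPKM under AdGFP and 34.8 and 36.1 RPKM under AdDlx3 in batch A. Mcm6 in batch B was at 28.6 and 34.8 RPKM under AdGFP and 35.6 and 35.4 RPKM under AdDlx3. It had the narrowest contrast of the 6 between batches, with a change of 0.45 ± 0.13 in batch A (limma adjusted p = 0.0156), 0.17 ± 0.13 in batch B (limma adjusted p = 0.283) and a difference of -0.28 ± 0.18 (limma adjusted p = 0.288). The batch A rise of Mcm6 was lost with median-of-ratios scaling (limma adjusted p = 0.194), without the low-value filter (0.0510), and without the knockout AdDlx3 (0.0761), knockout AdGFP (0.181) or wild-type AdDlx3 library (0.0514) of that batch. The remaining differences between batches were -0.91 for Mcm3, -0.59 for Mcm4 and -1.08 for Mcm5, of which those of Mcm3 and Mcm5 passed.

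The 10 licensing and firing genes all rose in batch A, by 0.34 (Gins4) to 1.2 (Mcm10). In batch B Mcm10 rose, Cdc6 fell, and the other 8, at -0.29 to 0.39, did not pass. Mcm10 (chr2:4989714-5012791, minus strand), which helps to activate the loaded helicase, was measured at 3.5 and 3.23 RPKM under AdGFP and 7.64 and 9.10 RPKM under AdDlx3 in batch A. Mcm10 in batch B was at 6.94 and 7.44 RPKM under AdGFP and 12.8 and 13.5 RPKM under AdDlx3. Within each batch both AdDlx3 libraries were above both AdGFP libraries, and the batch B libraries were above those of batch A under each virus. It rose by 1.2 ± 0.13 in batch A (limma adjusted p = 0.00012) and by 0.82 ± 0.13 in batch B (limma adjusted p = 0.000501), and the difference of -0.37 ± 0.18 did not pass (limma adjusted p = 0.186). Cdt1 (chr8:122568015-122573554, plus strand), the loading factor that cells destroy once S phase begins, was measured at 16.7 and 10.9 RPKM under AdGFP and 23.8 and 25.7 RPKM under AdDlx3 in batch A. Cdt1 in batch B was at 28.7 and 27.7 RPKM under AdGFP and 22.4 and 24.0 RPKM under AdDlx3. The knockout AdGFP library of batch A was the lowest and the wild-type AdGFP library of batch B the highest. It rose by 0.85 ± 0.17 in batch A (limma adjusted p = 0.00318) and had a log2 difference of -0.27 ± 0.17 in batch B (limma adjusted p = 0.196). The difference of -1.12 ± 0.24 passed (limma adjusted p = 0.0155), but not without the batch A knockout AdGFP library (0.0515) or the batch B wild-type AdDlx3 library (0.0771). Cdc6, the ATPase that works with Cdt1, fell by 0.52 in batch B and rose by 0.60 in batch A, and its difference of -1.12 passed. The batch B fall of Cdc6 was lost without the wild-type AdDlx3 library of that batch. Differences also passed for Cdc45 (-0.74), Gins1 (-0.75) and Gins2 (-0.73), and did not pass for Orc1 (-0.47), Orc6 (-0.15), Gins3 (-0.62) and Gins4 (-0.40). Opposite-strand exons overlap those of Orc6 (with Vps35, at a mean of 54.7 against 15.3 RPKM), Cdc45 (with Ufd1, 22.7 against 9.93 RPKM) and Gins2 (with Gse1 over 2758 bases, 15.2 against 15.0 RPKM).

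DNA polymerase alpha with primase starts each strand, polymerase epsilon extends the leading and polymerase delta the lagging strand. In batch A 5 of these 6 genes rose, all but Prim1, and in batch B Pola1 rose and Pold1 and Prim1 fell. The Prim1 fall was lost without the batch B wild-type AdDlx3 library. Pold1, the catalytic subunit of polymerase delta (chr7:44532746-44548849, minus strand), was measured at 13.7 and 12.3 RPKM under AdGFP and 19.1 and 22.2 RPKM under AdDlx3 in batch A. Pold1 in batch B was at 23.9 and 25.4 RPKM under AdGFP and 15.2 and 19.3 RPKM under AdDlx3. Its batch B AdGFP libraries were the highest of the 8, and both AdDlx3 libraries of that batch were below them. It rose by 0.65 ± 0.13 in batch A (limma adjusted p = 0.00379, and 0.0687 without the knockout AdGFP library), changed by -0.51 ± 0.13 in batch B (limma adjusted p = 0.00996, and 0.157 without the wild-type AdDlx3 library), and differed by -1.16 ± 0.19 (limma adjusted p = 0.00583). Pole, the catalytic subunit of polymerase epsilon (chr5:110286306-110337474, plus strand), was measured at 6.12 and 6.20 RPKM under AdGFP and 9.84 and 16.2 RPKM under AdDlx3 in batch A. Pole in batch B was at 10.9 and 13.9 RPKM under AdGFP and 12.5 and 19.95 RPKM under AdDlx3. The knockout AdDlx3 libraries were the highest in each batch, at 16.2 and 19.95 RPKM against 9.84 and 12.5 RPKM in wild-type cells. It rose by 0.98 ± 0.17 in batch A (limma adjusted p = 0.00141), and neither its change of 0.35 ± 0.17 in batch B (limma adjusted p = 0.106) nor the difference of -0.63 ± 0.24 passed (limma adjusted p = 0.0978). Pola2, the regulatory subunit of polymerase alpha (chr19:5940542-5964202, minus strand), was measured at 11.1 and 10.4 RPKM under AdGFP and 17.8 and 19.8 RPKM under AdDlx3 in batch A. Pola2 in batch B was at 19.2 and 18.4 RPKM under AdGFP and 17.7 and 19.2 RPKM under AdDlx3. The 2 batch A AdGFP libraries stood below the other 6, which spanned 17.7 to 19.8 RPKM. It rose by 0.78 ± 0.12 in batch A (limma adjusted p = 0.000809), had a log2 difference of -0.03 ± 0.12 in batch B (limma adjusted p = 0.844) and differed by -0.81 ± 0.17 (limma adjusted p = 0.014, lost without the batch A knockout AdGFP library at 0.0775 or the batch B wild-type AdDlx3 library at 0.0937). Prim2, the large primase subunit (chr1:33453810-33669795, minus strand), was measured at 9.74 and 11.1 RPKM under AdGFP and 15.9 and 18.3 RPKM under AdDlx3 in batch A. Prim2 in batch B was at 11.8 and 14.6 RPKM under AdGFP and 13.9 and 14.3 RPKM under AdDlx3. It was lowest in the batch A controls, and its 2 AdDlx3 libraries of batch B lay within the range of the 2 controls. It rose by 0.69 ± 0.12 in batch A (limma adjusted p = 0.00143), and its difference of -0.59 ± 0.17 (limma adjusted p = 0.0431) passed in none of the 8 fits that left out 1 library (0.0511 to 0.186) and with neither median-of-ratios scaling (0.0593) nor a variance without trend (0.0519). Pola1, the catalytic subunit of polymerase alpha, chosen here after its values were seen, was measured at 4.22 and 4.80 RPKM under AdGFP and 6.75 and 6.34 RPKM under AdDlx3 in batch A. Pola1 in batch B was at 4.93 and 7.77 RPKM under AdGFP and 9.04 and 10.2 RPKM under AdDlx3. Its 2 batch B AdDlx3 libraries were the highest of the 8, and it rose by 0.49 ± 0.16 in batch A (limma adjusted p = 0.0326) and 0.59 ± 0.16 in batch B (limma adjusted p = 0.0123). Neither Pola1 rise passed with median-of-ratios scaling (limma adjusted p = 0.224 and 0.0519) or without the low-value filter (0.125 and 0.0656). The batch A rise was also lost without the knockout AdGFP (0.164), wild-type AdDlx3 (0.246) or wild-type AdGFP library (0.105) of that batch, and the batch B rise without its wild-type AdDlx3 (0.0866) or AdGFP library (0.115).

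The clamp and lagging-strand genes encode the sliding clamp Pcna, subunits of its loader (Rfc2 to Rfc5), the flap nuclease Fen1 and the ligase Lig1 that joins Okazaki fragments. In batch A 5 of the 7 rose, all but Pcna and Rfc4, none passed in batch B, and 5 differences passed, again all but those of Pcna and Rfc4. Pcna (chr2:132249162-132253314, minus strand), the most abundant member per length, was measured at 119 and 106 RPKM under AdGFP and 148 and 137 RPKM under AdDlx3 in batch A. Pcna in batch B was at 129.7 and 161 RPKM under AdGFP and 120.2 and 132 RPKM under AdDlx3. The knockout AdGFP libraries were its lowest, in batch A, and its highest, in batch B. Its changes of 0.34 ± 0.13 in batch A (limma adjusted p = 0.0623) and -0.20 ± 0.13 in batch B (limma adjusted p = 0.241) did not pass. Rfc2 (chr5:134581366-134601805, plus strand) was measured at 22.6 and 23.5 RPKM under AdGFP and 39.5 and 46.0 RPKM under AdDlx3 in batch A. Rfc2 in batch B was at 33.2 and 34.1 RPKM under AdGFP and 30.3 and 33.7 RPKM under AdDlx3. The batch A AdDlx3 libraries were its highest and the batch A controls its lowest, with all 4 batch B libraries in between. It rose by 0.87 ± 0.11 in batch A (limma adjusted p = 0.000282), had a log2 difference of -0.07 ± 0.11 in batch B (limma adjusted p = 0.605) and differed by -0.94 ± 0.16 (limma adjusted p = 0.00588), a difference that passed in all 14 alternatives run. Lig1 (chr7:13277283-13311433, plus strand) was measured at 20.2 and 17.9 RPKM under AdGFP and 36.9 and 43.1 RPKM under AdDlx3 in batch A. Lig1 in batch B was at 27.2 and 27.6 RPKM under AdGFP and 31.1 and 33.5 RPKM under AdDlx3. Every AdDlx3 library was above every AdGFP library, with the gap wider in batch A. It rose by 1.05 ± 0.12 in batch A (limma adjusted p = 0.000205) and had a log2 difference of 0.24 ± 0.12 in batch B (limma adjusted p = 0.135). The difference of -0.81 ± 0.17 passed (limma adjusted p = 0.0163), but not without the batch A knockout AdDlx3 (0.0541) or AdGFP library (0.0909) or the batch B wild-type AdDlx3 library (0.0944). Exons of Rfc2, Rfc4, Rfc5, Fen1 and Lig1 overlap genes of the opposite strand. The overlapping gene was higher for Fen1 (Tmem258 at a mean of 69.6 against 24.3 RPKM), Rfc5 (Wsb2 at 61.4 against 18.6 RPKM) and Rfc4 (Eif4a2 at 48.1 against 12.1 RPKM), and lower for Lig1 (Zswim9 at 2.74 against 29.7 RPKM) and Rfc2 (Lat2 at 0.610 against 32.9 RPKM).

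**Figure D3:**
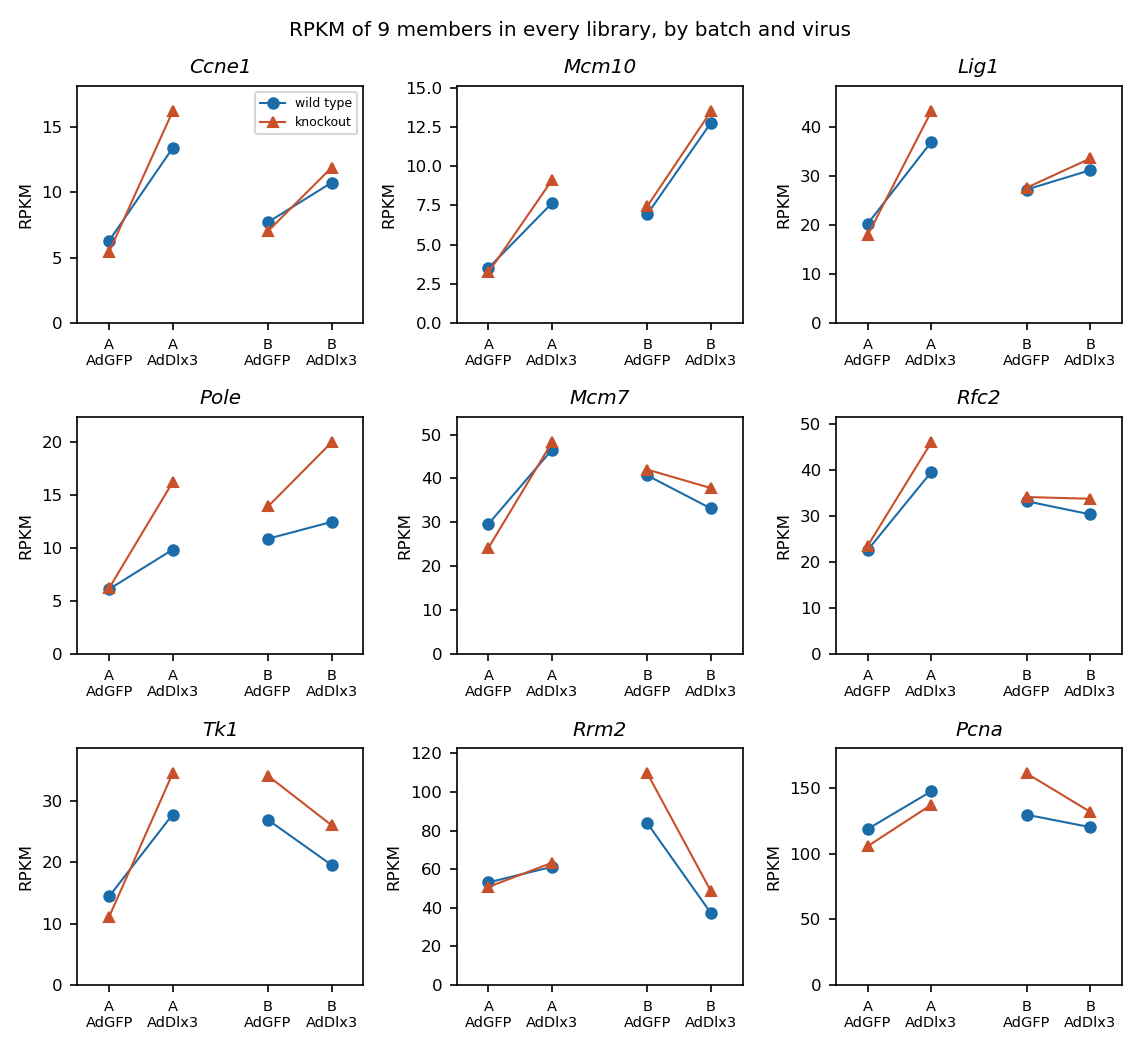
RPKM of 9 members in each library, by batch (A or B) and virus; circles are wild-type and triangles knockout libraries, lines join the libraries of one genotype and batch, and each axis starts at 0. Lines climb in batch A for all 9, while in batch B they climb for Ccne1, Mcm10, Lig1 and Pole and fall for Mcm7, Rfc2, Tk1, Rrm2 and Pcna.

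The 4 nucleotide synthesis genes held the members with the widest contrast between batches. Ribonucleotide reductase, built from Rrm1 and Rrm2, makes deoxynucleotides, Tk1 salvages thymidine and Tyms makes thymidylate. Rrm2 (chr12:24708241-24714146, plus strand) was measured at 53.2 and 50.8 RPKM under AdGFP and 61.2 and 63.4 RPKM under AdDlx3 in batch A. Rrm2 in batch B was at 83.8 and 109.7 RPKM under AdGFP and 37.3 and 48.7 RPKM under AdDlx3. In batch A the 4 libraries spanned 50.8 to 63.4 RPKM, and in batch B the controls were the highest and the AdDlx3 libraries the lowest of all 8. Its log2 difference was 0.26 ± 0.14 in batch A (limma adjusted p = 0.149) and, past the threshold, -1.16 ± 0.14 in batch B (limma adjusted p = 8.73e-05), and differed by -1.42 ± 0.19 (limma adjusted p = 0.00262). Tk1 (chr11:117815526-117826092, minus strand) was measured at 14.4 and 11.1 RPKM under AdGFP and 27.8 and 34.5 RPKM under AdDlx3 in batch A. Tk1 in batch B was at 26.9 and 34.1 RPKM under AdGFP and 19.6 and 26.1 RPKM under AdDlx3. The batch A controls were its lowest libraries, and its highest were the knockout libraries with AdDlx3 in batch A and with AdGFP in batch B. It rose by 1.26 ± 0.18 in batch A (limma adjusted p = 0.000525), had a log2 difference of -0.42 ± 0.18 in batch B (limma adjusted p = 0.0714) and had the widest difference of the 38, -1.67 ± 0.25 (limma adjusted p = 0.00397). Rrm1 fell by 0.45 in batch B (limma adjusted p = 0.012), a call lost without the wild-type AdDlx3 library of that batch. The Rrm1 difference of -0.68 passed, while Tyms rose by 0.44 in batch A and had a difference of -0.22 that did not. A processed copy of Tyms, listed in the table as Tyms-ps, averaged 0.118 RPKM.

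Cyclin E binds its kinase to start S phase, and E2f1 turns on replication genes. All 3 genes rose in batch A, and both cyclin E genes rose in batch B too. Ccne1 (chr7:38097984-38107534, minus strand) was measured at 6.29 and 5.43 RPKM under AdGFP and 13.4 and 16.2 RPKM under AdDlx3 in batch A. Ccne1 in batch B was at 7.72 and 7.03 RPKM under AdGFP and 10.7 and 11.9 RPKM under AdDlx3. Every AdDlx3 library was above every AdGFP library. It rose by 1.26 ± 0.14 in batch A (limma adjusted p = 0.000158) and by 0.58 ± 0.14 in batch B (limma adjusted p = 0.00647, and 0.0688 without the knockout AdDlx3 library), and its difference of -0.68 ± 0.20 did not pass (limma adjusted p = 0.0517). Ccne2 (chr4:11191351-11204779, plus strand), chosen here after its values were seen, was measured at 3.19 and 3.15 RPKM under AdGFP and 6.13 and 6.31 RPKM under AdDlx3 in batch A. Ccne2 in batch B was at 3.49 and 5.02 RPKM under AdGFP and 7.93 and 6.89 RPKM under AdDlx3. Its AdDlx3 libraries too were all above its AdGFP libraries, and it rose by 0.87 ± 0.16 in batch A (limma adjusted p = 0.0023) and 0.75 ± 0.16 in batch B (limma adjusted p = 0.00359, and 0.0637 without the wild-type AdDlx3 library). Exons of Ccne2 overlap 609 bases of Ints8 on the other strand, which averaged 9.25 RPKM against 5.26 RPKM for Ccne2. E2f1 (chr2:154559407-154569892, minus strand) was measured at 8.82 and 8.07 RPKM under AdGFP and 13.9 and 17.2 RPKM under AdDlx3 in batch A. E2f1 in batch B was at 11.5 and 11.7 RPKM under AdGFP and 11.2 and 12.8 RPKM under AdDlx3. In batch B its 4 libraries spanned 11.2 to 12.8 RPKM with the viruses overlapping. It rose by 0.84 ± 0.13 in batch A (limma adjusted p = 0.000983) and had a log2 difference of 0.04 ± 0.13 in batch B (limma adjusted p = 0.801). The difference of -0.79 ± 0.19 passed (limma adjusted p = 0.0231), but not without any 1 of 5 libraries, the knockout AdDlx3 (0.0800) and AdGFP (0.119) libraries of batch A and the knockout AdDlx3 (0.0546), wild-type AdDlx3 (0.125) and wild-type AdGFP (0.0623) libraries of batch B.

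Chaf1a and Chaf1b, subunits of the factor that places histones on new DNA, both rose in batch A and passed in neither direction in batch B. Chaf1a (chr17:56040439-56072289, plus strand) was measured at 14.2 and 13.1 RPKM under AdGFP and 22.7 and 27.8 RPKM under AdDlx3 in batch A. Chaf1a in batch B was at 23.1 and 23.9 RPKM under AdGFP and 25.0 and 28.6 RPKM under AdDlx3. The batch A controls stood below the other 6 libraries. It rose by 0.85 ± 0.13 in batch A (limma adjusted p = 0.000718) and had a log2 difference of 0.19 ± 0.13 in batch B (limma adjusted p = 0.245). The difference of -0.67 ± 0.18 (limma adjusted p = 0.0369) did not pass with median-of-ratios scaling (0.0512), without the knockout AdDlx3 (0.126) or AdGFP (0.179) library of batch A, or without the knockout AdDlx3 (0.0843), wild-type AdDlx3 (0.185) or wild-type AdGFP (0.0894) library of batch B. Chaf1b rose by 0.83 in batch A and differed by -0.82 (limma adjusted p = 0.0348). The exons of Chaf1a overlap those of Ubxn6 on the other strand over 4648 bases.

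The control cultures of the 2 batches, which received no added Dlx3, differed in these genes. Under AdGFP 28 members were higher in batch B than in batch A and none lower, with a median of 0.53, while 10.6% of all genes were higher and 13% lower (23.6% either way) with a median of -0.04. Both batch B controls lay above both batch A controls for 37 of the 38, all but Gins4, against 27.6% of all genes. The largest differences under AdGFP were 1.23 ± 0.18 for Tk1 (limma adjusted p = 0.00213), 1.03 ± 0.17 for Cdt1 (limma adjusted p = 0.00333) and 0.99 ± 0.13 for Mcm10 (limma adjusted p = 0.00141). Under AdDlx3 2 members were higher in batch B, Mcm10 and Pola1, and 7 lower, Gins1, Gins2, Gins4, Mcm7, Rfc2, Rfc5 and Rrm2, with a median of -0.22, against 15.2% of all genes higher and 26.8% lower (42% either way) with a median of -0.10. Both batch B libraries lay below both batch A libraries for 24 members, against 46.3% of all genes, and above them for 6, against 30.4%. These comparisons share their libraries with the responses given above and are not independent of them. Where a count of members falls below, calls over all genes fell too. Under AdGFP 5 of 23265 genes passed without the filter, against 2849 of 12090 with it. The count of 28 fell to 7 without the batch A knockout AdGFP library, to 14 without that of batch B, and to 0 when all 23265 genes with any value above 0 were tested, with limma adjusted p for Tk1, Cdt1 and Mcm10 of 0.0639, 0.0690 and 0.0511. The count of 9 under AdDlx3 fell to 1 without the batch B wild-type AdDlx3 library, to 2 without the batch A knockout AdDlx3 library, to 3 without the batch B knockout AdDlx3 library, and to 4 without the filter.

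**Figure D4:**
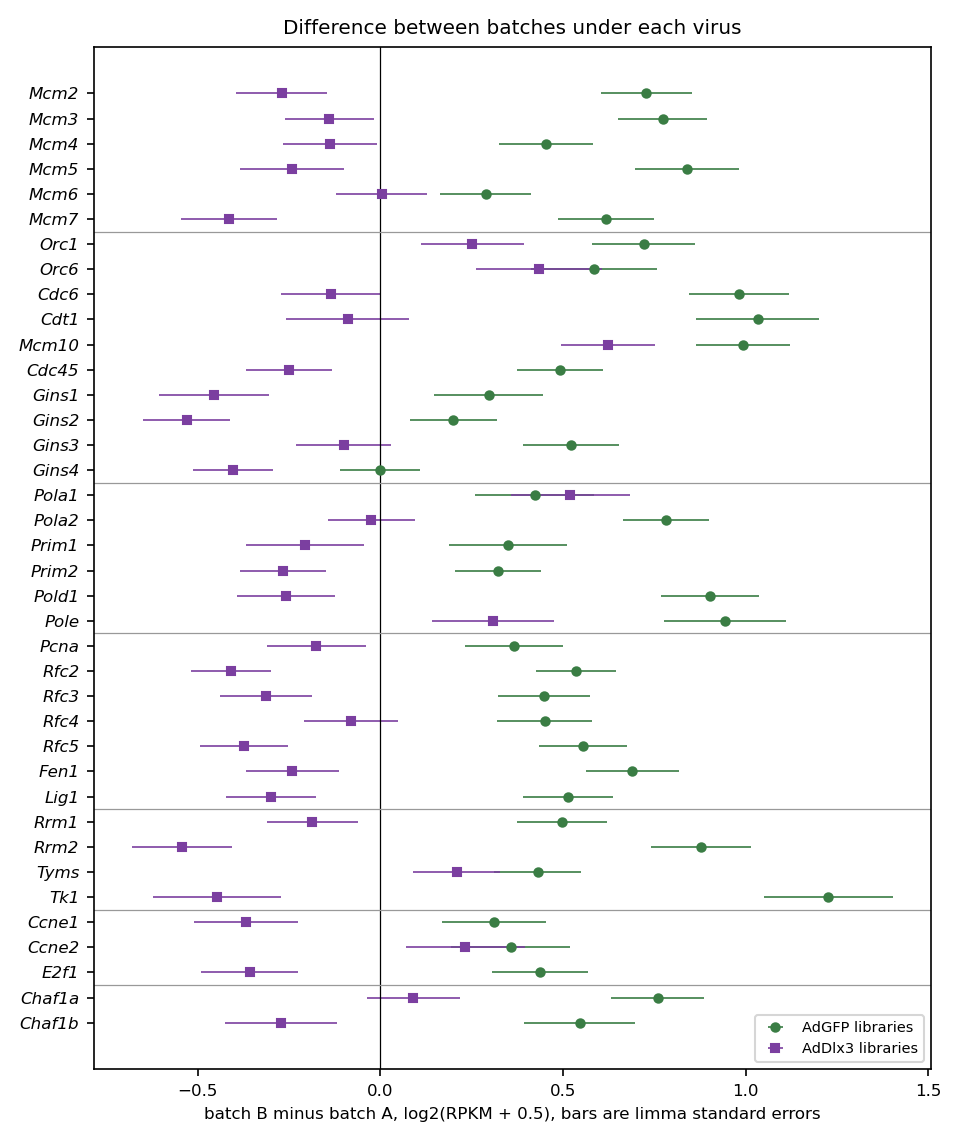
Batch B minus batch A for each of the 38 members under AdGFP (circles) and under AdDlx3 (squares), in log2(RPKM + 0.5), with limma standard errors as bars and lines between role groups. All AdGFP points but that of Gins4 lie above 0, and 29 of the AdDlx3 points lie below it.

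Taken over both batches, most members did not pass the test for AdDlx3. Over both genotypes 4 rose, Ccne1, Ccne2, Lig1 and Mcm10, and none fell, against 23.4% of all genes up and 5.74% down (29.2% either way). The median was 0.25 for the members and 0.22 for all genes. All 4 AdDlx3 libraries lay above all 4 AdGFP libraries for 4 members, against 29.6% of all genes. Ccne1 rose by 0.92 ± 0.17 (limma adjusted p = 0.00609) and Ccne2 by 0.81 ± 0.17 (limma adjusted p = 0.0109). Mcm10 rose by 1.01 ± 0.31 (limma adjusted p = 0.043), past the threshold neither with median-of-ratios scaling (0.118) nor without the low-value filter (0.0914), nor in 5 of the 8 fits without 1 library (0.0577 to 0.116), those without a knockout AdDlx3 library of either batch, a batch A AdGFP library or the batch B wild-type AdDlx3 library. Lig1 rose by 0.64 ± 0.18 (limma adjusted p = 0.0314), past the threshold neither with that scaling (0.116) nor without the filter (0.0578), nor in 5 of the 8 fits without 1 library (0.0546 to 0.0920), those without any of the 4 batch A libraries or the batch B knockout AdDlx3 library. With the replicate number as a block, which takes out the mean difference between the batches, 11 members rose (38% of all genes). They were the 4 named with Chaf1a, Mcm6, Orc6, Pola1, Pole, Prim2 and Tyms. When median-of-ratios scaling was added to the block 3 members rose, while 4641 of 12090 genes passed either way. With that scaling alone the count was 2, Ccne1 and Ccne2 (11.5% of all genes). The count was 2 without the batch B knockout AdDlx3 library, the batch A knockout AdGFP library or the batch A wild-type AdGFP library, and 7 without the batch B knockout AdGFP library.

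Within one genotype, 2 libraries a virus, no member passed in wild-type cells with limma, where 2 had an unadjusted p under 0.05 and 2.62% of all genes passed (2.27% up, 0.356% down). With the block 3 rose, Ccne2, Mcm10 and Pola1 (16.6% of all genes rose). In knockout cells Ccne1 rose by 1.10 ± 0.24 (limma adjusted p = 0.0487) and no other member passed, against 5.32% of all genes (4.43% up, 0.893% down). The Ccne1 call was lost when any 1 of the 8 libraries was left out (0.0530 to 0.187), with median-of-ratios scaling (0.0798) and without the filter (0.0818). With the block 4 rose in knockout cells, Ccne1, Ccne2, Mcm10 and Pole (18.9% of all genes rose). In the authors' deposited table no member had a q-value under 0.05 in any of the 4 contrasts. The lowest q-value was 0.133 for AdDlx3 in wild-type and 0.1003 in knockout cells. The authors' unadjusted p-values were under 0.05 for Ccne1 and Ccne2 in wild-type and for Ccne1 in knockout cells. How many of all genes passed there was not counted.

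No member passed the test between knockout and wild-type cells. Under AdGFP, under AdDlx3, over both viruses and for the interaction of genotype and virus, limma called 0 of the 38, and 0% of all genes, and none of the 38 had an unadjusted p under 0.05. Changes ranged from -0.32 (Cdt1) to 0.39 (Pola1) under AdGFP and from -0.13 to 0.68 (Pole) under AdDlx3. The Pole value of 0.68 ± 0.41, with 16.2 and 19.95 RPKM in knockout against 9.84 and 12.5 RPKM in wild-type cells, was the largest and had a limma adjusted p of 1. The Pole interaction was 0.50 with an SE of 0.58. With 2 libraries a group, the lack of calls does not show that the genotypes are alike. With the block limma again called none, and 1 member had an unadjusted p under 0.05 under AdDlx3 and over both viruses.

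Other genes of the pathway, from lists that hold none of the 38, are given by their counts. Of 45 further replication genes 20 rose and none fell in batch A (44.4% up, against 36.6% of all genes), and 8 rose and 8 fell in batch B (17.8% each, against 37.1% up and 16.1% down), with medians of 0.36 and 0.02. Chtf18, a clamp loader subunit for cohesion, fell by 1.30 in batch B (limma adjusted p = 0.000116) with a difference of -1.36, and Dna2, an Okazaki fragment nuclease, rose by 1.29 and 0.87 in batches A and B. Of 17 further genes of nucleotide supply 10 rose and none fell in batch A (58.8% up), and 3 rose and 3 fell in batch B (17.6% each), where Cad, the enzyme that starts pyrimidine synthesis, fell by 0.99 (limma adjusted p = 0.000141). Samhd1, which degrades deoxynucleotides, rose over both genotypes by 0.88 ± 0.16 (limma adjusted p = 0.00574). Of 26 further genes of G1/S control 14 rose and 1 fell in batch A (53.8% up), and 9 rose and 6 fell in batch B (34.6% up and 23.1% down, against 37.1% and 16.1% of all genes). Over both genotypes Ccnd2 (cyclin D2) rose by 1.08 ± 0.12 (limma adjusted p = 0.00118), Rb1, the retinoblastoma gene that restrains E2F, rose by 1.40 ± 0.21 (limma adjusted p = 0.00316), and Myc fell by 0.89 (limma adjusted p = 0.00423). The response of Rb1 also differed between the batches, past the threshold. Of 6 inhibitors of cyclin-dependent kinases tested 3 rose over both genotypes, where 23.4% of all genes rose, Cdkn1c by 1.15 ± 0.19, Cdkn2c by 0.88 ± 0.16 and Cdkn2d by 0.76 ± 0.17 (limma adjusted p = 0.00461, 0.00638 and 0.0151). Of 25 mitotic genes 15 rose and none fell in batch A (60% up, against 36.6% of all genes), and 1 rose and 12 fell in batch B (48.0% down, against 16.1%). Of these mitotic genes 17 differed downward between batches (68.0%, against 8.56%), and 21 were higher in batch B under AdGFP (84.0%, against 10.6%). Their medians of 0.43 in batch A, -0.31 in batch B and 0.57 between the controls stand beside 0.61, -0.17 and 0.53 for the replication and G1/S genes.

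**Figure D5:**
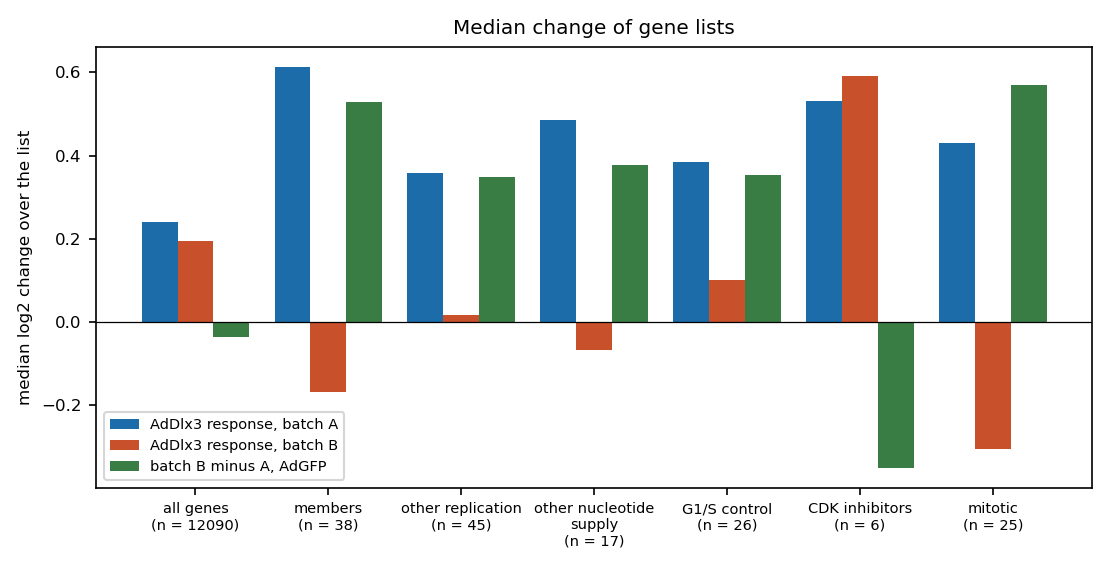
Median log2 change of each gene list for the AdDlx3 response in batch A, the response in batch B and the difference of batch B from batch A under AdGFP; n is the number of genes tested in the list and bars start at 0. Members and mitotic genes have a positive, a negative and a positive median, and the inhibitors of cyclin-dependent kinases a positive, a positive and a negative one.

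Sums of cell type markers differed with batch and virus, and those of melanocyte and immune markers with genotype too. The summed level of 7 basal keratinocyte markers was 15190 to 17080 RPKM in the batch A controls, 11129 to 14236 RPKM in those of batch B, 6712 to 8283 RPKM with AdDlx3 in batch A and 844 to 1102 RPKM with AdDlx3 in batch B, and 5 of the 7, led by Krt5 (-3.58), had a difference of response below 0 that passed. Of the suprabasal markers, 6 of 7 were in the table, none at 0, and their sum was 368 to 544, 130 to 202, 344 to 385 and 73.9 to 81.9 RPKM in the same order. The 6 fibroblast markers summed to 17.5 to 22.7, 7.67 to 9.66, 31.2 to 40.2 and 9.92 to 10.7 RPKM, 2 of them under 1 RPKM in every library. The 6 melanocyte markers summed to 267 to 375, 216 to 313, 223 to 405 and 159 to 310 RPKM, all 6 above 1 RPKM in some library. Under AdGFP their sum was 313 to 375 RPKM in wild-type and 216 to 267 RPKM in knockout cells. Under AdDlx3 it was 310 to 405 RPKM in wild-type and 159 to 223 RPKM in knockout cells. Every knockout library was below every wild-type library for the melanocyte sum, and also for the low immune sum. Immune markers summed to at most 2.65 RPKM and endothelial markers to at most 7.64 RPKM, and 3 of 5 in each list stayed under 1 RPKM throughout. Dlx3 itself was at 237 and 402 RPKM with AdDlx3 in batch A and at 782 and 539 RPKM in batch B. The part that the makeup of the cultures, the Dlx3 level and the batch have in the member values was not tested, and with 1 set of cultures a batch they cannot be told apart.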

How the data were processed

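RNA of 8 libraries, 2 in each of 4 groups, was analysed from the deposited gene table, whose RPKM values the authors had computed. Per the submitters' processing notes, bcl2fastq 2.20.0.422, TopHat2 2.1.1, Partek and the mm10 build were used; which annotation and counting settings were applied, and whether by strand, is not stated in what was used here. The authors also deposited a table of their own comparisons, with group means on a log2 scale, p-values and q-values, ratios and a signed fold score, and a sample sheet with the alignment counts and the batch of each library. RPKM values do not hold whole reads, so no count test was run.

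Groups were taken from the labels, and batches from the deposited sample sheet. Tests used limma 3.58.1 in R 4.3.3 on log2(RPKM + 0.5), with an intensity trend, for the 12090 of 26202 genes that reached 1 RPKM in 2 or more libraries, and p-values were adjusted over all of them by Benjamini-Hochberg with a threshold of 0.05. A fold change on this scale understates the change of low genes. Effects over both genotypes came from a fit of genotype and virus (5 residual degrees of freedom), effects within a genotype from a fit of the 4 groups (4), and effects per batch from genotype, virus and batch with their virus by batch term (3). The fits were tested on simulated data. The simulated libraries varied independently of each other, so that test does not cover the pairing described below.

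Replicate 1 of each group was in batch A and replicate 2 in batch B. Libraries that share a number moved together around their group means, with correlations of 0.351 to 0.876 between groups, so the numbers pair the libraries, and a fit with the replicate number as a block is printed where it changes a call. Alternatives were the pseudocount, the low-value filter, median-of-ratios scaling, the variance trend, the block and leaving out each library.

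The 38 genes and all other lists were chosen with earlier results of these data known. Genes with values in every library are the 12 members with the smallest adjusted p over the 12 comparisons, and in each role group the member with the highest mean RPKM and the one with the largest change over both genotypes; Ccne2 and Pola1 were added after their values were seen. From each other list up to 4 genes with the smallest adjusted p were eligible for naming. Promoters were RefSeq sequences of GRCm38.p6, and gene coordinates are those of GRCm38.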

Additional observations from a re-analysis of the deposited data

Results flagged for a closer look

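The response to AdDlx3 differed between the batches for 23 of the 38 genes, by the virus by batch term of limma at an adjusted p under 0.05, and in each the response was lower in batch B. Of the genes given with values in every library, the response in batch B minus that in batch A was -1.67 for Tk1 and -1.42 for Rrm2 on the log2(RPKM + 0.5) scale. It was -1.16 for Pold1, -1.12 for Cdt1, -1.03 for Mcm7 and -1.0 for Mcm2. It was -0.94 for Rfc2, -0.81 for Lig1, -0.81 for Pola2 and -0.79 for E2f1. The smallest of these differences were -0.67 for Chaf1a and -0.59 for Prim2. The summed basal keratinocyte markers, the Dlx3 level and the level of the members in the AdGFP controls differed between the batches as well, and their part in these differences was not tested.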

How the results depend on the processing

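Of 230 calls of named genes that were recomputed, 142 were lost under at least 1 alternative and 88 were kept under every one. None changed sign. Over both genotypes the count of members called was 4, and it was 2 without the low-value filter, 2 with median-of-ratios scaling, 11 with the replicate block, 3 with the block and the scaling together, and 2 to 7 when each library was left out in turn. In wild-type cells it was 0, but 3 with the replicate block and 2 with the block and the scaling together. In knockout cells it was 1, against 0 without the filter, 0 with the scaling, 4 with the block, 2 with the block and the scaling, and 0 in each fit without 1 library. The block changed no count in the 4 comparisons that involve genotype, and was not run for those between batches, whose fit already holds the batch. In batch A the count of 32 was 21 with the scaling and 18 to 35 without 1 library, and in batch B the count of 11 was 20 with the scaling and 3 to 12 without 1 library. Its balance of 4 up and 7 down turned to 5 and 3 without the knockout AdGFP library of batch B, and to 2 and 1 without the wild-type AdDlx3 library of batch B. For the difference between batches the count of 23 was 1 without the filter and 6 to 21 without 1 library. For batch B against batch A the count of 28 under AdGFP was 0 without the filter and 7 to 29 without 1 library, and the count of 9 under AdDlx3 was 4 and 1 to 13. Counts over all genes moved between settings as well. The fit without the filter tested 23265 genes in place of 12090, and the cause of the other shifts was not tested. It called 241 of all genes for the difference between batches, against 1692 with the filter. For batch B against batch A under AdGFP it called 5, against 2849. Comparisons of genotypes called 0 members under every alternative. Of 59 calls of members given with values in every library, 19 passed under all alternatives run for them. A fit without 1 library can leave a virus with a single library in a batch, which is then assumed to vary like the others. The read depth behind single RPKM values is unknown, and 2 libraries a group limit every comparison.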
